A study of Mus musculus with 15 samples.

Results

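The genes described here are 37 genes of cholesterol synthesis, fatty acid synthesis and their control by sterol regulatory element-binding proteins (SREBPs), selected by gene symbol from the 21669 genes with a symbol in the deposited table. All 37 passed the filter on expression and were among the 11299 genes tested. They were split by pathway branch into 7 genes of the mevalonate arm, 11 genes that lead from squalene to cholesterol, 5 SREBP regulators, 6 genes of sterol transport, efflux and the liver X receptors (LXRs), and 8 genes of fatty acid synthesis and desaturation. Poly(A) RNA was sequenced from B cells of female C57BL/6J mice in 5 groups of 3 libraries. Naive B cells (nB) were splenic CD43- cells that had not been stimulated. Activated B cells (actB), sorted as B220+GL7+CD138-, and plasmablasts (Pb), sorted as CD138+, were collected after 3 days of culture with LPS, IL2, and IL5 and with either the vehicle DMSO or 2 μM GSK343, an inhibitor of EZH2, the histone methyltransferase of the Polycomb repressive complex. For Pb with GSK343, the labels of the 3 libraries name Il6 where those of the other cultures name Il5, and if that is so, drug and cytokine cannot be told apart in Pb. The question asked of these genes was whether a fall with GSK343 was limited to sterol synthesis.

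Cholesterol is built from acetyl-CoA through mevalonate, isoprenoid diphosphates and squalene, and fatty acids are built from the same acetyl-CoA by carboxylation and repeated elongation. SREBPs are transcription factors held in the endoplasmic reticulum by SCAP and the INSIG proteins while sterols are plentiful. When sterols fall they are cut, enter the nucleus and raise genes of both pathways, with SREBP2 known mainly for sterol genes and SREBP1 for fatty acid genes. LXRs respond to oxidised sterols and raise the exporters *Abca1* and *Abcg1*, the ubiquitin ligase *Mylip* and *Srebf1* itself. Activated B cells and plasmablasts divide and expand their membranes, and for this they draw on both pathways.

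Between 19421830 and 26307413 reads were counted per library, so a count of 0 allows up to 3 reads, or 0.114 to 0.154 reads per 1000000 reads counted (RPM), which covers counting error only. Levels are given as RPKM, which is RPM per kilobase of the gene length given in the table. Replicates 1 and 2 of nB differed by less than the sampling noise and were counted as 1 sample, which leaves 2 nB samples. Replicate 2 of actB stood apart from replicates 1 and 3 under both treatments, with a chi-square per degree of freedom of 16.7 to 29.7 against 3.80 and 6.07 between the other 2 libraries. In Pb the same held to a lesser degree, with 7.64 to 11.4 against 3.58 and 3.68. The 6 B cell markers were present in every group and the 6 plasmablast markers summed to 3083 to 3417 RPKM in Pb against 485 to 669 RPKM in actB, over both treatments. In the cultured groups the 8 T and NK cell markers summed to at most 0.984 RPKM. Fold changes are on the scale of log2(RPKM + 0.25), which understates the change of low genes, and are given ± SE with Benjamini-Hochberg adjusted p-values from limma over all genes tested. In bulk libraries fewer cells of a type and less RNA per cell cannot be told apart, and values in RPM are relative to the other RNAs of a library. The sample titles give each library the prefix m with its replicate number and do not say what is numbered, and the study calls the replicates of a cell type biological. If they did not come from separate mice or cultures, the p-values measure only the spread between these libraries.

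Promoter windows were read from RefSeq for build GRCm38.p6, as the 250 bases before an annotated transcription start, and 29 of the 37 genes had a window. The sequences below are 5 genes of sterol synthesis that fell with GSK343 in both cell types and, for contrast, *Abca1*, which rose in both. Each is written 5′ to 3′ on the strand of its gene, and the last base is the one before the start. Capitals mark the sterol regulatory element TCACNCCAC, where N is any base, and the CCAAT box bound by NF-Y, which reads as ATTGG when it lies on the other strand.
Hmgcs1, plus strand, chr13:119690101-119690350: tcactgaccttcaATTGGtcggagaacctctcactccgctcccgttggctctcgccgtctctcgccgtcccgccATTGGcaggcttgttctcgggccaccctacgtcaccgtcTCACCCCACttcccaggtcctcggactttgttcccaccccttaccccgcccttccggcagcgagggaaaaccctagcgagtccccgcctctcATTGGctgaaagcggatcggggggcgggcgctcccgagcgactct
Idi1, plus strand, chr13:8885356-8885605: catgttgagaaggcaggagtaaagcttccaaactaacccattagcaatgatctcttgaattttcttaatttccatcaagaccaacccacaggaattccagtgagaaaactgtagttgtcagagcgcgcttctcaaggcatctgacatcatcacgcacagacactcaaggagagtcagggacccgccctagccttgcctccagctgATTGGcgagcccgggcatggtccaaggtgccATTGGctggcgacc
Lss, plus strand, chr10:76531355-76531604: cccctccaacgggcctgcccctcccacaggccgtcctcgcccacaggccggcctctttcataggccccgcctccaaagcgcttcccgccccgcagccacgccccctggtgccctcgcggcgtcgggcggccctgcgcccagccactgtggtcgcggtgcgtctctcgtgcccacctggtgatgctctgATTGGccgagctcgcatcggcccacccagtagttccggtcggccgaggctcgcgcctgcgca
Cyp51, minus strand, chr5:4104698-4104947: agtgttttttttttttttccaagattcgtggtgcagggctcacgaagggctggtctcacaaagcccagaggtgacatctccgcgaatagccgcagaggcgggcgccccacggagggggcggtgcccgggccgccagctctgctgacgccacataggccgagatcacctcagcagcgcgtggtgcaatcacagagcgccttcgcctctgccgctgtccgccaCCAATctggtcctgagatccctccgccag
Msmo1, minus strand, chr8:64733579-64733828: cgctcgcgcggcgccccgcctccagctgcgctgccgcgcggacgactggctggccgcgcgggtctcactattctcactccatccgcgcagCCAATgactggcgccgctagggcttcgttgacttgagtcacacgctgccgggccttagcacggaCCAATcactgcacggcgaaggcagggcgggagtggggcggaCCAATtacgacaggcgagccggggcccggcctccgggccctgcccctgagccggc
Abca1, minus strand, chr4:53159896-53160145: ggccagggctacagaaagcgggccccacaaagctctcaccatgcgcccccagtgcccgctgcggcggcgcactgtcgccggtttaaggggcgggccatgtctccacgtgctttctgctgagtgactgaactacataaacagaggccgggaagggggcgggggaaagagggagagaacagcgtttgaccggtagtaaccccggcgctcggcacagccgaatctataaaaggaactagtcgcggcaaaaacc

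The CCAAT box was found in 14 of the 15 sterol synthesis genes with a window, among them all 9 of the arm from squalene to cholesterol and 5 of 6 of the mevalonate arm. It was found in 4 of 5 SREBP regulators, in 1 of 4 genes of transport and efflux (*Mylip*) and in 1 of 5 genes of fatty acid synthesis (*Fasn*). Over all 27025 genes with a window, 37.5% held the box. The *Hmgcs1* and *Msmo1* windows above held 3 boxes each, *Idi1* held 2, *Lss* and *Cyp51* held 1 each, and *Abca1* held none. The exact element TCACNCCAC was found on either strand in 1 of the 29 genes, *Hmgcs1*, and in 1.22% of all genes. The Sp1 box GGGCGG, which is not marked in the sequences, was found in 23 of the 29 genes and in 35.4% of all genes. The 3 motifs were searched on both strands and each was counted on its own. A match describes these letters in this window and does not show binding.

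With GSK343, genes of sterol synthesis fell in both actB and Pb, and the exporters *Abca1* and *Abcg1* rose in both. In actB, 11 of the 37 genes were called lower (adjusted p under 0.05) against a background of 2.16% of all genes, and 2 were called higher against 8.2%. In Pb, 20 were called lower against 5% of all genes and 3 higher against 7.9%. The 11 genes lower in actB were all lower in Pb too, and comprised 10 genes of sterol synthesis and the sterol carrier gene *Stard4*. Another 10 genes were called in Pb and not in actB, and 14 were called in neither. The shares of all genes in these overlaps were not counted, and nothing is read from the overlaps. Under a block for replicate number, 14 genes were called lower and 3 higher in actB, against 6.24% and 14.7% of all genes, and in Pb again 20 lower and 3 higher, against 10.7% and 13.6%. Fitted on the actB libraries alone, 4 genes were called (*Fdft1*, *Cyp51*, *Msmo1* and *Nsdhl*, all lower, against 0.416% of all genes), while the Pb libraries alone gave 16 lower and 2 higher, against 4.04% and 7.06%. Leaving out single actB libraries gave fewer calls. Without DMSO replicates 1, 2, and 3 in turn, 8, 10, and 6 of the 37 were called, where 5.38%, 12.1%, and 5.72% of all genes were. Without GSK343 replicates 1, 2, and 3 the counts were 12, 8, and 8, where 6.27%, 10.1%, and 5.55% of all genes were called.

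**Figure D1:**
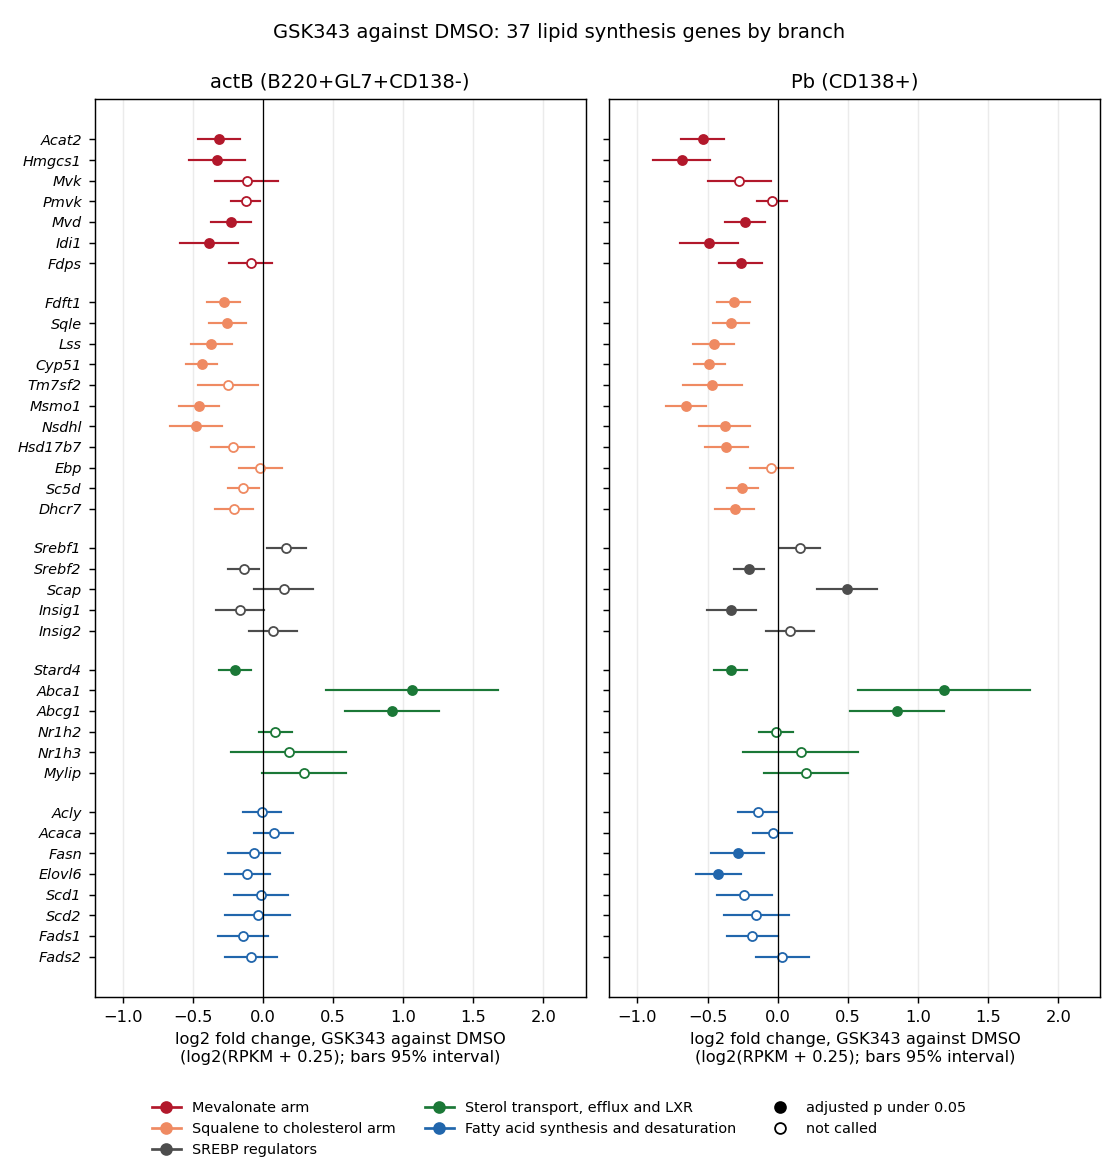
Log2 fold change on GSK343 against DMSO for the 37 genes in actB and Pb, grouped by branch, with 95% confidence intervals from limma (3 libraries per group), and filled points for an adjusted p under 0.05. With all libraries in the fit, the 18 genes of sterol synthesis lie below 0 in both cell types, *Abca1* and *Abcg1* lie farthest above 0, and no gene of fatty acid synthesis is filled in actB.

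The mevalonate arm makes isoprenoid diphosphates from acetyl-CoA, and its 7 genes all had negative fold changes in both cell types. In actB 4 of the 7 were called lower, with a branch median of -0.23 (log2), and in Pb 5 of the 7 with a median of -0.28. Over all genes, 2.16% were called lower in actB and 5% in Pb. The median over all genes tested was 0.03 in actB and 0.003 in Pb. *Hmgcs1*, which encodes the cytosolic synthase of HMG-CoA, was at 56.0, 57.6, and 57.9 RPKM with DMSO and 49.8, 40.9, and 46.4 RPKM with GSK343 in actB. Each GSK343 library was below each DMSO library, and the change was -0.33 ± 0.09 (adjusted p = 0.0427). In Pb it was at 37.4, 42.4, and 33.5 RPKM with DMSO and 21.0, 24.5, and 24.5 RPKM with GSK343. Again the groups did not overlap, and the change of -0.69 ± 0.09 (adjusted p = 0.000824), a fall of 37.8%, was the largest fall of any of the 37 genes in Pb.

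*Acat2* encodes the thiolase that joins acetyl-CoA units at the head of the pathway. In actB it was at 49.3, 48.4, and 49.4 RPKM with DMSO and 44.3, 35.5, and 39.0 RPKM with GSK343, and in Pb at 28.1, 25.9, and 26.9 RPKM with DMSO and 18.01, 19.1, and 18.5 RPKM with GSK343. The DMSO libraries of a cell type lay within 3 RPKM of each other and above every GSK343 library, and the change was -0.31 ± 0.07 (adjusted p = 0.0149) in actB and -0.53 ± 0.07 (adjusted p = 0.000681) in Pb. *Idi1*, the isomerase of isopentenyl diphosphate, was at 158, 139, and 156 RPKM with DMSO and 129.6, 96.1, and 124 RPKM with GSK343 in actB, a change of -0.38 ± 0.10 (adjusted p = 0.0251). It was at 123, 119, and 115 RPKM with DMSO and 82.7, 83.2, and 88.0 RPKM with GSK343 in Pb, a change of -0.49 ± 0.10 (adjusted p = 0.00651). In actB the lowest GSK343 value of *Hmgcs1*, *Acat2* and *Idi1* was in each case that of replicate 2, the library that stood apart.

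The other 4 genes of this arm changed less. *Mvd*, the decarboxylase of mevalonate diphosphate, was called lower in both cell types (-0.23 ± 0.07, adjusted p = 0.0452 in actB, and -0.24 ± 0.07, adjusted p = 0.0336 in Pb). *Fdps*, the farnesyl diphosphate synthase, was called lower in Pb (-0.26 ± 0.07, adjusted p = 0.0268) and was at -0.09 (adjusted p = 0.495) in actB. The kinases *Mvk* and *Pmvk* were not called by limma in either cell type, at -0.11 and -0.12 in actB and at -0.28 and -0.04 in Pb. edgeR with TMM factors and the replicate block called *Pmvk* lower in actB (adjusted p = 0.0200) and *Mvk* lower in Pb (adjusted p = 0.0421), where it called 13.8% and 13.2% of all genes lower. The calls of this arm in actB depended on single libraries. That of *Idi1* was lost without DMSO replicates 1 or 3 (adjusted p up to 0.0919), its change was -0.25 without GSK343 replicate 2, and that of *Acat2* without DMSO replicates 1 or 3 or GSK343 replicate 3 (up to 0.0550). Those of *Hmgcs1* and *Mvd* were kept only without GSK343 replicate 1, and otherwise rose to as much as 0.115 without DMSO replicate 3 for *Hmgcs1* and 0.158 without GSK343 replicate 3 for *Mvd*. In Pb the calls of *Hmgcs1*, *Acat2* and *Idi1* were kept whichever Pb library was left out. Those of *Mvd* and *Fdps* were kept only without GSK343 replicate 2 (adjusted p up to 0.136 and 0.108 without GSK343 replicate 3).

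In the arm from squalene to cholesterol, 6 of the 11 genes were called lower in actB, against 2.16% of all genes. In Pb 10 of 11 were, against 5%. The branch medians were -0.25 (log2) in actB and -0.37 in Pb. *Cyp51*, the lanosterol demethylase, was at 93.0, 94.7, and 91.0 RPKM with DMSO and 72.4, 66.2, and 67.6 RPKM with GSK343 in actB. Its values in Pb were 78.8, 81.1, and 71.7 RPKM with DMSO and 53.9, 56.0, and 54.7 RPKM with GSK343. The groups were well apart in both cell types, and *Cyp51* fell by 26.0% in actB (-0.43 ± 0.05, adjusted p = 0.000491) and fell by 28.8% in Pb (-0.49 ± 0.05, adjusted p = 0.000181). *Msmo1* encodes the monooxygenase that oxidises other sterol methyl groups in a later step. It was at 51.1, 56.3, and 54.2 RPKM with DMSO and 38.6, 38.4, and 40.6 RPKM with GSK343 in actB and at 43.0, 46.7, and 41.7 RPKM with DMSO and 25.6, 29.2, and 28.5 RPKM with GSK343 in Pb. No libraries overlapped, and *Msmo1* fell by 27.1% in actB (-0.46 ± 0.06, adjusted p = 0.00133) and fell by 36.4% in Pb (-0.65 ± 0.06, adjusted p = 0.000151).

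*Nsdhl*, the sterol dehydrogenase that completes removal of these methyl groups, was at 41.7, 46.5, and 39.3 RPKM with DMSO and 31.1, 31.5, and 28.8 RPKM with GSK343 in actB. Its change of -0.48 ± 0.08 (adjusted p = 0.00442) was the largest fall of the 37 genes in actB, and the groups did not overlap. In Pb, at 35.2, 38.1, and 30.9 RPKM with DMSO and 24.7, 28.0, and 27.2 RPKM with GSK343, the change was -0.38 ± 0.08 (adjusted p = 0.0127, and 0.0592 without GSK343 replicate 1). *Lss*, the lanosterol synthase, was at 40.0, 40.3, and 40.9 RPKM with DMSO and 35.1, 28.2, and 31.0 RPKM with GSK343 in actB. It was at 29.9, 29.6, and 29.6 RPKM with DMSO and 21.6, 22.6, and 20.6 RPKM with GSK343 in Pb. Its 3 DMSO values were within 1 RPKM of each other in each cell type and above all GSK343 values, with a change of -0.37 ± 0.07 (adjusted p = 0.00512) in actB and -0.46 ± 0.07 (adjusted p = 0.00132) in Pb.

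At the entry of this arm, *Fdft1*, the squalene synthase, was at 38.2, 39.4, and 38.0 RPKM with DMSO and 33.0, 31.2, and 31.1 RPKM with GSK343 in actB and at 30.8, 32.2, and 29.2 RPKM with DMSO and 23.5, 26.5, and 24.0 RPKM with GSK343 in Pb. The change was -0.28 ± 0.05 (adjusted p = 0.00733) in actB and -0.31 ± 0.05 (adjusted p = 0.00336) in Pb, without overlap of libraries. *Sqle*, the squalene epoxidase and a known control point of the pathway, was at 81.7, 84.6, and 85.8 RPKM with DMSO and 74.2, 64.9, and 72.6 RPKM with GSK343 in actB, and at 72.7, 75.1, and 69.3 RPKM with DMSO and 55.9, 57.0, and 58.9 RPKM with GSK343 in Pb. Its change was -0.25 ± 0.06 (adjusted p = 0.0190, and up to 0.0719 without DMSO replicate 3 or GSK343 replicate 2) in actB and -0.34 ± 0.06 (adjusted p = 0.00390) in Pb. In actB *Fdft1*, *Lss*, *Cyp51*, *Msmo1*, *Nsdhl* and, among the efflux genes, *Abcg1* were called whichever single actB library was left out.

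Of the later steps of the arm, limma called 4 lower in Pb that it did not call in actB. edgeR with TMM factors and the replicate block called these 4 lower in actB too, and 10 of the 11 genes in all, against 13.8% of all genes. *Hsd17b7*, the reductase that follows *Nsdhl*, was at 8.45, 8.85, and 7.604 RPKM with DMSO and 6.49, 5.89, and 6.75 RPKM with GSK343 in Pb, where the groups did not overlap (-0.37 ± 0.07, adjusted p = 0.00631). In actB it was at 12.8, 13.7, and 13.9 RPKM with DMSO and 11.7, 10.9, and 12.02 RPKM with GSK343, with all GSK343 libraries below all DMSO libraries but a change of -0.22 ± 0.07 that missed the threshold in limma (adjusted p = 0.0750, or 0.00934 in edgeR with the block). *Sc5d*, the sterol desaturase, was at 38.7, 38.4, and 35.2 RPKM with DMSO and 30.6, 32.5, and 31.1 RPKM with GSK343 in Pb (-0.25 ± 0.05, adjusted p = 0.00712) and at 53.5, 49.8, and 52.9 RPKM with DMSO and 47.8, 45.7, and 48.3 RPKM with GSK343 in actB (-0.14 ± 0.05, adjusted p = 0.0992, or 0.0202 in edgeR with the block). The reductases *Dhcr7* and *Tm7sf2* were called lower in Pb (-0.31, adjusted p = 0.00840, and -0.47, adjusted p = 0.00920). In actB they were at -0.21 (adjusted p = 0.0569) and -0.25 (adjusted p = 0.131), and with the replicate block in limma at an adjusted p of 0.0281 and 0.0346. The sterol isomerase gene *Ebp* was the exception of this arm, at -0.02 (adjusted p = 0.917) in actB and -0.05 (adjusted p = 0.736) in Pb.

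Over both arms, all 18 genes had a negative fold change in both cell types, where 42% of all genes did in actB and 48.9% in Pb. In actB 2 of these signs turned when libraries were left out. That of *Ebp* turned without DMSO replicate 1 (0.04) and also without GSK343 replicate 2. That of *Mvk* turned without both replicate 2 libraries (0.008). All 3 GSK343 libraries were below all 3 DMSO libraries for 15 of the 18 genes in actB, against 7.52% of all genes, and for 16 of 18 in Pb, against 15.3%. The median fall was 15.9% in actB and 21.6% in Pb. In mm9 annotation (GENCODE vM1), exons of *Fdft1* overlap those of *Ctsb*, and exons of *Lss* those of a lincRNA gene, both on the opposite strand, and exons of *Tm7sf2* overlap a gene on the same strand. Whether strand was used in counting is not stated, so some reads of these 3 genes may belong to the neighbours.

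Markers of plasmablasts moved in the same comparisons. In actB the 6 markers summed to 485 to 522 RPKM with DMSO and 549.6 to 669 RPKM with GSK343, without overlap and with a median change of 0.29 (log2). *Sdc1*, which encodes CD138 (0.41 ± 0.11, adjusted p = 0.0422), and *Jchain*, the joining chain of secreted antibodies (0.37 ± 0.10, adjusted p = 0.0277), were called higher. Over all genes, 8.2% were called higher in actB. In Pb the sums were 3083 to 3234 RPKM with DMSO and 3151 to 3417 RPKM with GSK343, which overlapped. *Sdc1* rose there from 28.8, 30.4, and 29.8 RPKM with DMSO to 58.8, 53.3, and 53.7 RPKM with GSK343 (0.89 ± 0.11, adjusted p = 0.000575), and *Irf4*, a transcription factor of plasma cells, was called lower (-0.25 ± 0.06, adjusted p = 0.0225). Both arms of sterol synthesis were also lower in Pb than in actB with DMSO, by their medians, and the part of plasmablast RNA in their fall in actB was not tested.

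**Figure D2:**
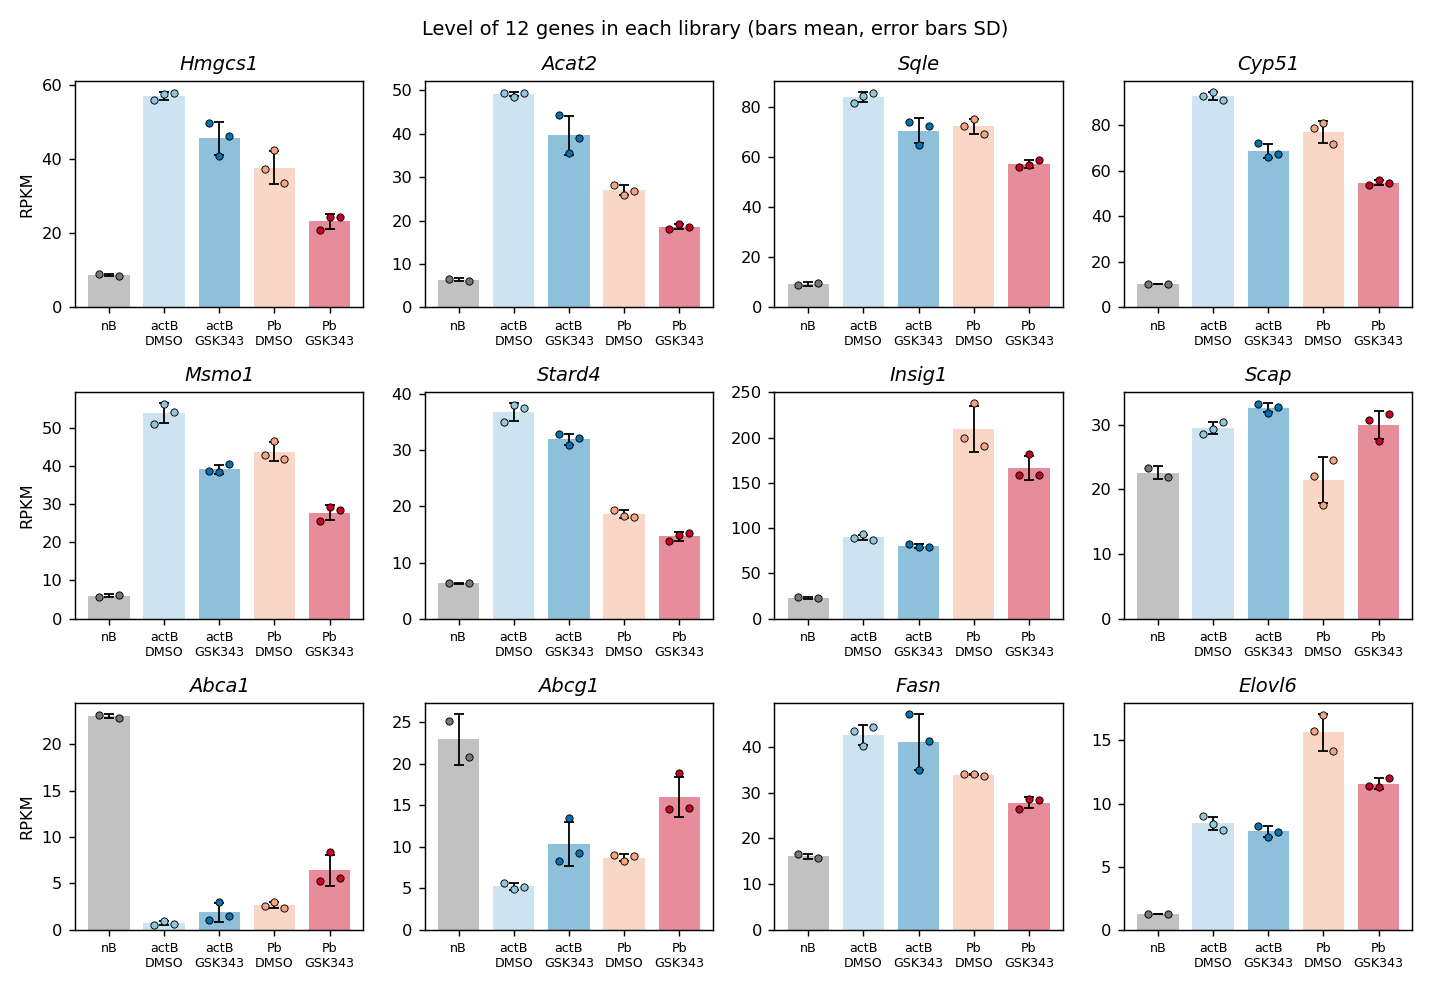
RPKM of 12 of the genes in each library of the 5 groups, with points for libraries, bars for group means and error bars for the SD (n = 2 in nB and 3 in each other group), every axis starting at 0. *Cyp51* and *Msmo1* show lower GSK343 points without overlap in both cell types, *Abca1* and *Abcg1* are highest in nB and higher with GSK343 than with DMSO, and *Fasn* overlaps in actB.

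Of the 5 SREBP regulators, limma called none in actB, where 2 had an unadjusted p under 0.05, as 25% of all genes did. edgeR with TMM factors also called none of the 5 in actB, where it called 3.81% of all genes lower, and with the replicate block it called *Srebf2* and *Insig1* lower, against 13.8% of all genes. In Pb limma called 2 lower and 1 higher, against 5% and 7.9% of all genes. *Srebf2*, which encodes SREBP2, was at 83.8, 89.8, and 85.7 RPKM with DMSO and 80.3, 78.1, and 77.1 RPKM with GSK343 in actB and at 91.0, 95.5, and 90.9 RPKM with DMSO and 76.4, 85.6, and 78.4 RPKM with GSK343 in Pb. The GSK343 libraries lay below the DMSO libraries in both cell types, and the change was called in Pb (-0.21 ± 0.05, adjusted p = 0.0180, and up to 0.0796 without DMSO replicate 2 or GSK343 replicates 1 or 3) and missed the threshold in actB (-0.14 ± 0.05, adjusted p = 0.102, or 0.0302 with the replicate block). *Srebf1*, which encodes SREBP1, went the other way without a call. It was at 31.3, 32.1, and 32.8 RPKM with DMSO and 35.8, 37.1, and 35.2 RPKM with GSK343 in actB and at 26.5, 24.1, and 28.2 RPKM with DMSO and 27.7, 32.0, and 28.4 RPKM with GSK343 in Pb. All actB libraries with GSK343 exceeded those with DMSO (0.17 ± 0.06, adjusted p = 0.127), while the Pb libraries overlapped (0.16 ± 0.06, adjusted p = 0.137). Exons of *Srebf1* overlap *Rai1* on the opposite strand.

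*Insig1* encodes an SREBP-retaining protein and is itself a known SREBP target. Its Pb values were 199.7, 238, and 191 RPKM with DMSO and 158, 182, and 159 RPKM with GSK343, without overlap. The change of -0.33 ± 0.08 was called (adjusted p = 0.0176), but not without GSK343 replicate 3 (adjusted p = 0.0755) or GSK343 replicate 1. In actB, at 88.9, 93.2, and 87.1 RPKM with DMSO and 82.5, 79.1, and 78.8 RPKM with GSK343, it was at -0.16 ± 0.08 (adjusted p = 0.227). *Scap*, the escort of the SREBPs, was the regulator that rose in Pb, at 22.1, 17.5, and 24.6 RPKM with DMSO and 30.7, 27.5, and 31.7 RPKM with GSK343 (0.49 ± 0.10, adjusted p = 0.00726). Its lowest value was that of DMSO replicate 2. In actB *Scap* was at 28.6, 29.4, and 30.4 RPKM with DMSO and 33.3, 31.8, and 32.8 RPKM with GSK343 (0.15 ± 0.10, adjusted p = 0.401), and its exons overlap a gene on the opposite strand. *Insig2* was not called, at 0.07 in actB and 0.09 in Pb.

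Among the genes of transport and efflux, the cholesterol exporter *Abca1* rose in both cell types from low levels. In actB it was at 0.543, 0.942, and 0.631 RPKM with DMSO and 1.06, 3.04, and 1.505 RPKM with GSK343, from 132 to 233 reads per DMSO library. The highest value under each treatment was that of replicate 2, the library that stood apart. The groups did not overlap (1.06 ± 0.28, adjusted p = 0.0329, and 0.69 without GSK343 replicate 2), but the call was lost without DMSO replicate 1 (adjusted p = 0.119), DMSO replicate 3 or GSK343 replicates 2 or 3. In Pb, at 2.58, 2.97, and 2.38 RPKM with DMSO and 5.30, 8.35, and 5.59 RPKM with GSK343, all GSK343 libraries were above all DMSO libraries (1.18 ± 0.28, adjusted p = 0.0173, and up to 0.0613 without DMSO replicates 1 or 3 or GSK343 replicate 2). *Abcg1*, which exports sterols to lipoproteins, was at 5.66, 4.88, and 5.16 RPKM with DMSO and 8.31, 13.4, and 9.27 RPKM with GSK343 in actB. It was at 9.01, 8.25, and 8.82 RPKM with DMSO and 14.6, 18.8, and 14.6 RPKM with GSK343 in Pb. This gene rose 1.89-fold in actB (0.92 ± 0.15, adjusted p = 0.00339) and 1.80-fold in Pb (0.85 ± 0.15, adjusted p = 0.00435), without overlap in either.

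Both exporters are also expressed by macrophages, and some markers of myeloid cells were higher with GSK343 in actB. The 10 myeloid markers summed to 4.27 to 5.69 RPKM with DMSO and 8.63 to 14.5 RPKM with GSK343 in actB, where 6 of the 10 had a mean of at most 0.1 RPKM. Of the 9 tested, *Itgam* (1.14 ± 0.19, adjusted p = 0.00376) and *Adgre1* (0.79 ± 0.18, adjusted p = 0.0156) were called higher, against 8.2% of all genes. Most of the sum was *Itgam*, at 4.66, 3.50, and 4.65 RPKM with DMSO and 12.8, 6.60, and 10.5 RPKM with GSK343. In nB *Itgam* had a mean of 4.02 RPKM and *Lyz2* a mean of 166 RPKM. *Adgre1* was at 0.127, 0.147, and 0.168 RPKM with DMSO and 0.486, 0.419, and 0.405 RPKM with GSK343, without overlap. *Lyz2*, *Mrc1* and *Csf1r* were not called, at means of 0.422, 0.206, and 0.0189 RPKM with DMSO and 0.772, 0.423, and 0.0347 RPKM with GSK343. *Cd14* and *C1qa* were not called either, at means of 0.0461 and 0.0126 RPKM with DMSO and 0.0361 and 0 RPKM with GSK343. *S100a8*, *S100a9* and *Vsig4* were at 0 in all cultured libraries. Among the actB libraries with GSK343, *Abca1* was highest in replicate 2, and so was *Lyz2* (10 to 34 reads per library). *Itgam* (1071 to 2210 reads) and *Mrc1* (42 to 65 reads) were lowest there. *Adgre1* (35 to 47 reads) was highest in replicate 1. *Csf1r* and *Cd14* had at most 7 and 4 reads in these libraries, too few to rank them. In Pb, where both exporters were also called higher, the markers summed to 4.47 to 7.05 RPKM with DMSO and 5.89 to 6.28 RPKM with GSK343 and none was called. The part of myeloid RNA in the rise of the exporters was not tested. In Pb 2 of the 6 B cell markers were called lower, against 5% of all genes. The 6 summed to 922 to 942 RPKM with DMSO and 753 to 894 RPKM with GSK343. The part of this in the changes in Pb was not tested.

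*Stard4*, a carrier that moves cholesterol between membranes and a known SREBP target, went with the synthesis genes. In actB it was at 35.0, 38.0, and 37.5 RPKM with DMSO and 32.9, 31.0, and 32.2 RPKM with GSK343, without overlap (-0.20 ± 0.05, adjusted p = 0.0312). That call was kept only when DMSO replicate 1 was the actB library left out (adjusted p otherwise up to 0.105, without DMSO replicate 3). The Pb libraries were at 19.4, 18.3, and 18.1 RPKM with DMSO and 13.8, 14.9, and 15.3 RPKM with GSK343, and the fall of 20.8% (-0.34 ± 0.05, adjusted p = 0.00194) was kept whichever Pb library was left out. *Mylip*, an LXR target whose product marks lipoprotein receptors for degradation, was at 10.9, 13.5, and 10.2 RPKM with DMSO and 11.8, 17.5, and 13.4 RPKM with GSK343 in actB, where the libraries overlapped (0.29 ± 0.14, adjusted p = 0.216, or 0.0350 with the replicate block). In Pb it was at 7.90, 9.10, and 8.39 RPKM with DMSO and 9.78, 10.7, and 8.89 RPKM with GSK343 (0.20 ± 0.14, adjusted p = 0.385). Of the LXR genes themselves, *Nr1h2* was at 0.09 in actB and -0.01 in Pb, and *Nr1h3*, with no more than 24 reads in any cultured library, was at 0.18 and 0.16, with no call.

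Of the 8 genes of fatty acid synthesis, limma called none in actB, where it called 2.16% of all genes lower and 8.2% higher. None of the 8 reached an unadjusted p under 0.05, which 25% of all genes did. The branch median in actB was -0.05 (log2), or -0.11 without GSK343 replicate 1 and -0.02 without GSK343 replicate 3. edgeR with TMM factors and the replicate block called 1 of the 8 lower in actB, *Fads1* (adjusted p = 0.0374), against 13.8% of all genes. Whether the branch differed from sterol synthesis was not tested. *Fasn*, the fatty acid synthase, was at 43.6, 40.1, and 44.3 RPKM with DMSO and 47.1, 34.9, and 41.3 RPKM with GSK343 in actB, where the GSK343 libraries spanned the DMSO range (-0.06 ± 0.09, adjusted p = 0.731). *Acaca*, the acetyl-CoA carboxylase that commits acetyl-CoA to this pathway, was at 15.8, 14.8, and 15.6 RPKM with DMSO and 17.9, 15.1, and 15.8 RPKM with GSK343 in actB and at 7.87, 7.57, and 7.98 RPKM with DMSO and 7.32, 7.68, and 7.83 RPKM with GSK343 in Pb. It overlapped in both (0.08 ± 0.06, adjusted p = 0.513 in actB, and -0.04 ± 0.06, adjusted p = 0.777 in Pb). Exons of *Acaca* overlap a gene on the opposite strand.

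In Pb, limma called 2 genes of this branch lower, against 5% of all genes. The branch median was -0.17 (log2), or -0.25 without GSK343 replicate 2. edgeR with the block called 4 lower, against 13.2% of all genes, with *Scd1* (adjusted p = 0.0330) and *Fads1* (adjusted p = 0.0328) beside the same 2. *Elovl6*, which elongates palmitate, was at 15.7, 17.0, and 14.2 RPKM with DMSO and 11.4, 11.3, and 12.1 RPKM with GSK343 in Pb, without overlap (-0.42 ± 0.07, adjusted p = 0.00381). In actB it was at 9.003, 8.34, and 7.93 RPKM with DMSO and 8.25, 7.36, and 7.76 RPKM with GSK343 (-0.11 ± 0.07, adjusted p = 0.413). *Fasn* was at 34.1, 34.0, and 33.7 RPKM with DMSO and 26.4, 28.7, and 28.4 RPKM with GSK343 in Pb, with all GSK343 libraries lower (-0.29 ± 0.09, adjusted p = 0.0483). That call was lost whichever Pb library was left out, with an adjusted p of up to 0.163 without GSK343 replicate 1.

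limma called no desaturase in either cell type. *Scd1* introduces the unsaturation of oleate and had the highest mean RPKM of the 8 in nB and actB, at 334, 330.3, and 339 RPKM with DMSO and 325, 337, and 333 RPKM with GSK343 in actB and at 173, 158, and 157 RPKM with DMSO and 119, 161, and 136 RPKM with GSK343 in Pb. The actB libraries overlapped (-0.01 ± 0.09, adjusted p = 0.966), and so did the Pb libraries, in which GSK343 replicate 2 lay within the DMSO range (-0.24 ± 0.09, adjusted p = 0.105). Its paralog *Scd2* was at 293, 308, and 297 RPKM with DMSO and 272, 322, and 283 RPKM with GSK343 in actB. In Pb *Scd2* was at 282, 288, and 265 RPKM with DMSO and 212, 302, and 245 RPKM with GSK343, where again replicate 2 with GSK343 was the highest of its group (-0.15 ± 0.11, adjusted p = 0.401). *Fads2*, a desaturase of polyunsaturated fatty acids, was at -0.08 in actB and 0.03 in Pb, its neighbour *Fads1* was at -0.14 and -0.18, and *Acly*, which supplies cytosolic acetyl-CoA, was at -0.01 and -0.14. *Scd1* and *Scd2* are close paralogs, and how reads that fit both were counted is not stated.

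Seen library by library, the mean log2 level of the 18 sterol synthesis genes was below the DMSO mean by 0.18, 0.34, and 0.26 in actB GSK343 replicates 1, 2, and 3. The mean of the 8 fatty acid genes differed from DMSO by 0.04, -0.11, and -0.07 in the same libraries. In Pb the sterol mean was at -0.41, -0.32, and -0.37, and the fatty acid mean was at -0.27, -0.08, and -0.19. Thus the sterol genes were farther below DMSO than the fatty acid genes in each of the 6 GSK343 libraries, as a description without a test. The means of the 6 genes of transport and efflux were above DMSO, by 0.18, 0.67, and 0.32 in actB and 0.27, 0.50, and 0.25 in Pb. Replicate 2 had the highest transport and efflux mean in both cell types. It had the lowest sterol mean in actB and the highest in Pb. Without both replicate 2 libraries of actB, 7 of the 37 genes were called lower and 2 higher in actB, where 2.93% and 7.8% of all genes were.

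**Figure D3:**
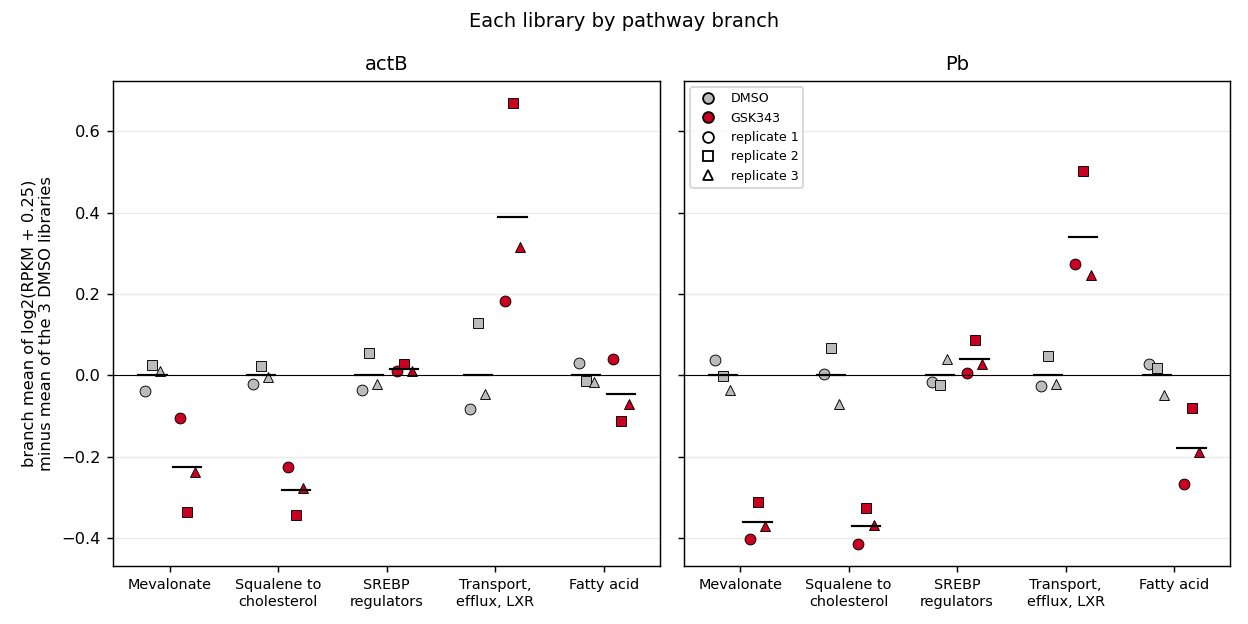
Mean log2 level of each branch in every cultured library minus the mean of the DMSO libraries of the same cell type, on the log2(RPKM + 0.25) scale, with colours for treatment and marker shapes for replicate numbers. The sterol branches lie below 0 in all 6 GSK343 libraries, between -0.10 and -0.41, fatty acid synthesis straddles 0 in actB and lies between -0.27 and -0.08 in Pb, and transport and efflux lies above 0.

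The effects of GSK343 in Pb and in actB were compared by an interaction term, and none of the 37 genes differed at an adjusted p under 0.05 in limma, against a background of 0.248% of all genes. At an unadjusted p under 0.05 there were 4, where 9% of all genes were. edgeR with TMM factors called none of the 37, where it called 0.126% of all genes higher and 0.153% lower, and with the replicate block it called 1 gene higher, against 1.31% of all genes. The 4 were *Elovl6* (difference -0.31 ± 0.11, adjusted p = 0.338), *Hmgcs1* (-0.36 ± 0.13, adjusted p = 0.397), *Scap* (0.34 ± 0.14, adjusted p = 0.469), and *Acat2* (-0.22 ± 0.10, adjusted p = 0.531). The gene that edgeR called was *Scap*. The fold change was more negative in Pb than in actB for 31 of the 37 genes, where this held for 56.9% of all genes, and for 16 of the 18 genes of sterol synthesis. Apart from *Scap* in that edgeR fit (adjusted p = 0.0420), the 10 genes called in Pb and not in actB are not shown to respond differently in the 2 cell types, and the difference in Pb also carries the cytokine named in the labels.

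Without the drug, the sterol genes were already set apart by stage. In actB with DMSO against nB, 30 of the 37 genes were higher and 6 lower, where 40.9% and 36.3% of all genes were. All 18 genes of sterol synthesis were higher, with a median of 2.68 (log2) for the mevalonate arm and 2.25 for the arm from squalene to cholesterol, beside 0.05 for all genes. *Cyp51* rose from 10.2 and 10.2 RPKM in the nB samples to 91.0 to 94.7 RPKM (3.16 ± 0.06, adjusted p = 6.72e-13). *Sqle* rose from 8.84 and 9.93 to 81.7 to 85.8 RPKM (3.13 ± 0.07, adjusted p = 1.61e-12), and *Hmgcs1* from 8.99 and 8.49 to 56.0 to 57.9 RPKM (2.68 ± 0.10, adjusted p = 1.69e-10). Levels with GSK343 remained far above those of nB, since for all 18 genes every GSK343 library of actB and of Pb exceeded both nB samples, as it did for 35% of all genes.

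The other branches moved unequally on activation. Of the 8 fatty acid genes 7 were higher in actB than in nB, with a branch median of 1.96 (log2). *Fads2* had the largest rise of the 37 genes, from 0.251 and 0.275 RPKM in nB, where it had 22 to 24 reads per library, to 23.2, 23.0, and 20.8 RPKM in actB (5.46 ± 0.10). It passed the filter on expression only through the cultured libraries and so had to differ from nB. Nothing is read from its call among the 7. *Scd2* rose by 2.85 ± 0.12 (adjusted p = 3.37e-10). *Fads1*, at 0.990 and 1.26 RPKM in nB, rose by 4.15 ± 0.09. It too needed the cultured libraries to pass the filter, and nothing is read from its call among the 7. *Scd1* was instead high from the start, at 366 and 321 RPKM in nB, and did not pass the test in actB (-0.03 ± 0.10, adjusted p = 0.762). Among the regulators *Insig1* rose most, from 23.9 and 22.3 RPKM in nB (1.95 ± 0.09, adjusted p = 7.23e-10), while *Srebf2* rose by 0.49 ± 0.06 and *Srebf1* by 0.81 ± 0.07 (adjusted p = 4.08e-06 and 4.43e-07). *Insig2* was called lower (-0.26 ± 0.09, adjusted p = 0.0166).

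Genes of efflux fell on activation, opposite to synthesis. *Abca1* was at 23.2 and 22.9 RPKM in nB against at most 0.942 RPKM in actB with DMSO (-4.63 ± 0.31, adjusted p = 3.41e-08), the largest fall of the 37 genes. *Mylip* fell from 86.9 and 75.9 RPKM (-2.80 ± 0.15, adjusted p = 4.41e-09), *Abcg1* from 25.1 and 20.8 RPKM (-2.07 ± 0.17, adjusted p = 2.21e-07), and the LXR gene *Nr1h2* was called lower too (-0.84). *Nr1h3* was at 1.05 and 2.03 RPKM in nB and at most 0.444 RPKM in the cultured libraries. It passed the filter only through its nB columns and so had to differ, and nothing is read from its call among the 6. *Stard4* was the 1 gene of this branch that rose, from 6.27 and 6.29 RPKM (2.51 ± 0.06, adjusted p = 3.41e-12). The nB samples also held more RNA of myeloid cells, with the 10 markers at 206 to 262 RPKM in sum, of which *Lyz2* was at 152 and 180.4 RPKM. The share of these cells in the nB levels of *Abca1*, *Abcg1* and *Nr1h3* was not tested.

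In Pb with DMSO against actB with DMSO, 24 of the 37 genes were lower and 6 higher, where 42.4% and 27.3% of all genes were and the median over all genes was -0.12 (log2). With median scaling of the libraries the counts were 20 lower and 10 higher, against 34.5% and 33.7% of all genes. The mevalonate arm had a median of -0.60, the arm from squalene to cholesterol -0.30, and the fatty acid branch -0.28. *Acat2* (-0.86 ± 0.07, adjusted p = 2.72e-07) and *Stard4* (-0.98 ± 0.05, adjusted p = 6.46e-09) fell well below the median of all genes. *Scd1* had the largest fall, from 334, 330.3, and 339 RPKM in actB to 173, 158, and 157 RPKM in Pb (-1.04 ± 0.09, adjusted p = 4.29e-07). The changes of *Sqle* (-0.22 ± 0.06, adjusted p = 0.00614) and *Nsdhl* (-0.29 ± 0.08, adjusted p = 0.00826) lost their calls with median scaling, and that of *Sqle* also in edgeR with the replicate block (adjusted p = 0.0891).

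Against this fall, *Insig1* rose further in Pb, to 199.7, 238, and 191 RPKM from 88.9, 93.2, and 87.1 RPKM in actB (1.22 ± 0.08, adjusted p = 3.29e-08). *Elovl6* rose to 15.7, 17.0, and 14.2 RPKM (0.87 ± 0.07, adjusted p = 4.33e-07), and *Ebp* rose by 0.82 ± 0.07 (adjusted p = 4.49e-07). These 3 genes were higher at each stage than at the one before. Of the other regulators, *Srebf1* (-0.29, adjusted p = 0.00164) and *Scap* were called lower in Pb than in actB. *Insig2* was called higher and *Srebf2* was not called. *Abca1* and *Abcg1* rose again (1.61 ± 0.28, adjusted p = 0.000234, and 0.71 ± 0.15, adjusted p = 0.00126). Both remained below nB (-3.01 and -1.37).

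In Pb with DMSO against nB, 28 genes were higher and 7 lower, *Nr1h3* again among them, where 39.5% and 41.1% of all genes were. All 18 sterol synthesis genes were higher. The largest fall was that of *Mylip*, to 7.90, 9.10, and 8.39 RPKM (-3.23 ± 0.15, adjusted p = 6.13e-10). The largest rise was that of *Fads2* (5.23 ± 0.10). By the filter it had to differ from nB here too, and nothing is read from its call among the 28. Nor is anything read from that of *Fads1*, which needed the cultured libraries to pass. Across the 3 comparisons, which share libraries, 20 genes rose in actB and fell in Pb to a level still above nB, where 8.69% of all genes did so. Among the 20 were *Fads2* and 15 of the 18 genes of sterol synthesis. With median scaling 17 genes did, among them 13 of sterol synthesis, against 6.71% of all genes, and *Sqle*, *Nsdhl* and *Fads2* dropped out. *Acly* fell below its nB level in Pb (-0.27, adjusted p = 0.00385), and so did *Scd1* (-1.08, adjusted p = 4.40e-07).

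**Figure D4:**
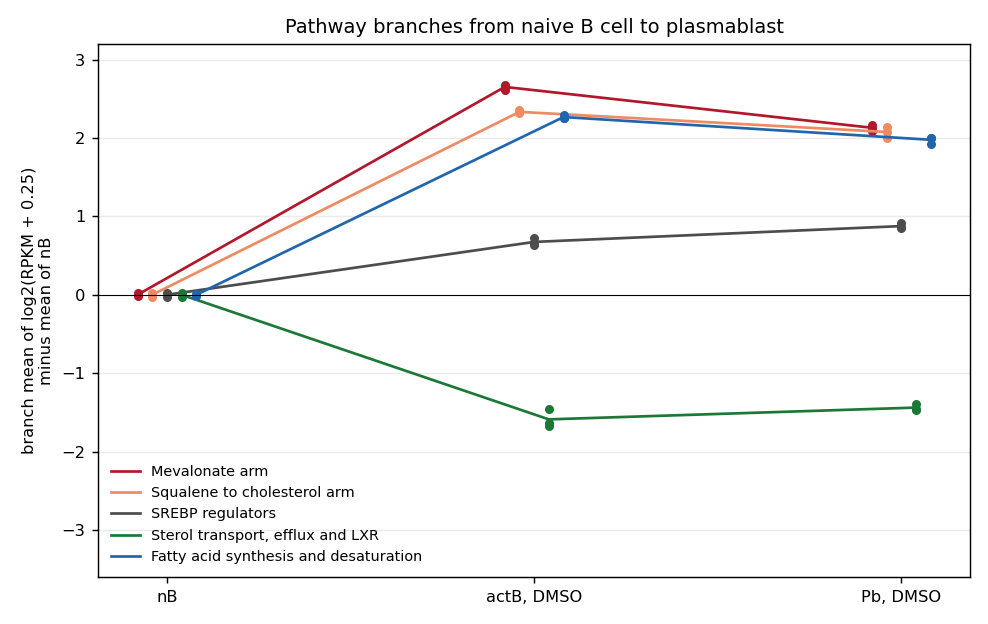
Mean log2 level of each branch in the libraries of nB, actB with DMSO and Pb with DMSO, minus the mean of the nB samples, on the log2(RPKM + 0.25) scale. The sterol and fatty acid branches lie about 2 log2 units or more above nB in actB and somewhat lower in Pb. The mean of the regulators rises from nB to actB to Pb, though only *Insig1* of them was called higher at both steps. Transport and efflux lies below nB in actB and in Pb.

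Other genes of the same pathways, listed beside the 37, were counted in the same fits. Of 21 further sterol and isoprenoid genes, limma called 1 in actB with GSK343, which was higher, where 8.2% of all genes were, and in Pb 3 higher and 1 lower, where 7.9% and 5% were. Of 16 further fatty acid genes tested, it called 1 higher and 2 lower in actB, against 8.2% and 2.16% of all genes, and in Pb 1, which was lower, against 5%. *Slc25a1*, which exports the citrate used for acetyl-CoA, was called lower in both cell types (-0.26, adjusted p = 0.0208 in actB, and -0.31, adjusted p = 0.00722 in Pb). *Aacs*, which activates acetoacetate for lipid synthesis, was called lower in Pb (-0.31, adjusted p = 0.0162) and was at -0.21 (adjusted p = 0.0896) in actB. *Hacd3*, a dehydratase of fatty acid elongation, was called lower in actB (-0.40, adjusted p = 0.00696). On the other side, *Lipa*, the lysosomal lipase that frees cholesterol from its esters, was called higher in Pb, at 15.5 ± 0.235 RPKM against 12.2 ± 0.666 RPKM (SD, n = 3) with DMSO (0.34, adjusted p = 0.000876). *Mbtps1*, a protease that cuts SREBPs, was called higher in Pb (0.15, adjusted p = 0.0217), and *Acsl1*, an acyl-CoA synthetase, in actB (0.26, adjusted p = 0.0280). The other 2 called, named after their values were seen, were *Stard3*, a sterol carrier of endosomes, higher in actB (0.20, adjusted p = 0.0356), and *Soat1*, which esterifies cholesterol, higher in Pb (0.28, adjusted p = 0.0493).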

How the data were processed

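Poly(A) RNA from 15 samples was sequenced as paired-end reads. The authors mapped the reads to mm9 with TopHat2, used GenomicRanges to count those overlapping the exons of Entrez genes, and deposited RPM (per 1000000 reads counted) for each library beside a gene length in bases. Each column sums to 1000000 although the table is named for RPKM, and 100% of its values are multiples of what 1 read is worth (tolerance 0.0011 RPM), from which read counts were recovered. Strand use in counting is not stated. The 92 genes without a symbol held up to 0.0905% of a library's reads and were left out. Results for some genes are not reported here.

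RPKM was computed as RPM divided by length. Genes that reached an RPKM of 1 in 3 or more of the 15 columns (11299) were tested. Replicates 1 and 2 of nB were merged (chi-square per degree of freedom 0.00958, against 3.58 or more for every other pair within a group). The 14 libraries were fitted together by linear models (lmFit and eBayes of limma 3.58.1, with a trend, in R 4.3.3) on log2(RPKM + 0.25), two-sided, with Benjamini-Hochberg adjustment and a threshold of 0.05. An exact permutation test of 3 libraries against 3 cannot go below a p of 0.1. The fit was tested on simulated counts with planted changes larger than most of those reported here. In that simulation no replicate stood apart, so it does not cover such a case.

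Replicate numbers may pair the samples, which the titles do not state. Deviations from group means correlated between same-numbered cultured libraries (r of 0.158 to 0.502, 0.435 to 0.713, and 0.219 to 0.356 for numbers 1, 2, and 3, over 6 pairs each), and r was -0.603 to 0.370 over 36 pairs with different numbers. The ranges for numbers 1 and 3 overlap the range for different numbers, and that for number 2 does not. The study's methods name no term for replicate number, so the block is an alternative. The rest of the alternatives used pseudocounts of 1 and 0.05, no filter (18752 genes), an RPKM of at least 3 (9887 genes), at least 3 RPM (11146 genes), median scaling, quantile normalization, the compared groups alone, all 15 columns, edgeR 4.0.16 on the recovered reads (TMM, RLE, and TMM with the block), and leaving out each library. Leaving out both actB libraries of replicate 2 was added after seeing the data.

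The genes and lists were chosen with earlier results of these data known. Values per library were given for up to 14 genes called with GSK343, by smallest adjusted p, for Srebf1, Srebf2, Insig1, Sqle, Hmgcs1, Fasn, Acaca, Scd1, Scd2, and Abca1 whatever they did, and for the largest rise and fall in each stage comparison. Values per library of Scap were added after they were seen. Of the other pathway genes, at most 6 called ones were named by smallest adjusted p. Promoter windows came from RefSeq (GRCm38.p6) and gene overlaps from GENCODE vM1 (mm9), and coordinates of the 2 builds were not mixed.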

Additional observations from a re-analysis of the deposited data

How the results depend on the processing

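In actB, 13 genes were called with GSK343 as reported, 4 when the compared groups were fitted alone, 22 by edgeR with TMM factors and the replicate block, and 6 to 12 when 1 library was left out, the fewest without DMSO replicate 3. For the difference of the effects, edgeR with TMM and the replicate block called 1 gene. The replicate block in limma gave 17 calls in actB and 23 in Pb and changed no other count by more than 1.5 times, and no block could be fitted with nB. In Pb, counts with GSK343 stayed between 17 and 26 under every alternative run.

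Branch medians kept their direction in the comparisons with GSK343. That of the SREBP regulators in actB was 0.0175 with quantile normalization and 0.0073 to 0.15 with a library left out. With libraries left out, the arm from squalene to cholesterol ranged from -0.29 to -0.19 in actB, and the mevalonate arm from -0.36 to -0.25 in Pb.

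For actB against nB, the mevalonate median was 2.58 with a pseudocount of 1, 2.60 with median scaling, and 2.63 with quantile normalization, and the squalene arm was at 2.16, 2.18, and 2.20 under the same 3 and at 2.19 to 2.31 with a library left out. The regulators were at 0.42 with median scaling and 0.34 with quantile normalization. Transport and efflux was at -1.45 and -2.16 with pseudocounts of 1 and 0.05, -2.18 with edgeR TMM, and -2.02 to -1.75 with a library left out. Fatty acid synthesis was at 1.71 and 2.05 with these pseudocounts, 1.89 with median scaling, 1.92 with quantile normalization, and 2.03 with edgeR TMM.

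For Pb against actB, the mevalonate median was -0.49 with median scaling and with quantile normalization, -0.53 with edgeR TMM, and -0.62 to -0.52 with a library left out. The squalene arm was at -0.19 with median scaling. The regulators were at 0.21 with median scaling and 0.16 with edgeR TMM, fatty acid synthesis at -0.17 and -0.22, and transport and efflux at 0.15 with edgeR TMM.

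Signs that turned belonged to genes without a call. With quantile normalization, *Nr1h3* was at -0.0405 and *Acly* at 0.0208 in actB with GSK343. *Scd2* in Pb against actB was at 0.008 with median scaling, 0.0121 with edgeR RLE, and 0.0027 with edgeR TMM and the block. With libraries left out, in actB with GSK343 *Mvk* ranged from -0.21 to 0.0081, *Ebp* from -0.0891 to 0.0444, *Acly* from -0.0843 to 0.0695, *Fasn* from -0.165 to 0.0492, *Scd1* from -0.0326 to 0.0029, and *Scd2* from -0.107 to 0.0137. In Pb *Nr1h2* ranged from -0.0558 to 0.0303 and *Fads2* from -0.0666 to 0.0887, and *Scd1* in actB against nB from -0.129 to 0.0608. The cause of these shifts was not tested. With 3 libraries a group, or 2 in nB, changes as small as those of *Mvd* or *Fasn* sat at the edge of what the tests call.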

Other observations

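Summed over the 18 genes of sterol synthesis, the level was 168 and 169.7 RPKM in the nB samples, 1072 to 1086 RPKM in actB with DMSO and 841 to 971 RPKM with GSK343. In Pb it was 895 to 963 RPKM with DMSO and 709 to 759 RPKM with GSK343. The sum over the 8 fatty acid genes, most of it *Scd1* and *Scd2*, was 831 to 837 RPKM with DMSO and 809 to 837 RPKM with GSK343 in actB. In Pb it was 574 to 615 RPKM with DMSO and 466, 606, and 520 RPKM in GSK343 replicates 1, 2, and 3. These sums are levels per length, led by the most abundant genes.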
